A study of Mus musculus with 9 samples.

Results

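The genes described here supply flavin cofactors or encode enzymes that carry FMN or FAD outside the respiratory chain, fatty acid oxidation and the NADPH oxidases. They were chosen by name for this function. Of the 53465 gene IDs in the count table, 50 were members. Of these, 49 were found by symbol and Sqrdl, listed in the annotation as Sqor, by synonym. A total of 46 members had enough counts to be tested, among 14088 genes tested in all.

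Riboflavin enters cells through carriers of the Slc52a family. Riboflavin kinase (Rfk) turns it into FMN, and FAD synthase (Flad1) turns FMN into FAD. Flavoenzymes use these cofactors to pass electrons between donors such as NADPH, amines, thiols or amino acids and acceptors such as oxygen, quinones, heme or metal ions. DPI is taken here as diphenyleneiodonium, a compound that blocks many flavoenzymes.

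RNA was sequenced from mouse adult fibroblasts (MAFs) in 3 libraries of cells exposed to DPI for 72 h, 3 exposed for 24 h and 3 controls. The treatment label of the last group reads only Control, so a vehicle is neither named nor denied. The labels give no dose, strain, age or genotype, and no time of collection for the controls. In every comparison, an effect of DPI and one of longer culture cannot be told apart. Nothing in the labels ties the libraries of a group to separate cultures, so the spread behind each p-value may be technical. Control 2 stood apart from the other controls.

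Depth was 15292736 to 17923656 counts per library. Control 2 scored 44.23 on the second principal component, against 14.15 and 18.04 in controls 1 and 3. Of 8 fibroblast markers, 6 were tested, and their summed level was 8484 to 9972 CPM (counts scaled to a common library size) at 72 h, 9233 to 9659 CPM at 24 h and 5232 to 5413 CPM in controls, most of it from collagen genes and Vim. Of the tested ones, Dcn was at 0.911 to 4.45 CPM, Pdgfra at 6.67 to 17.1 CPM and Pdgfrb at 25.6 to 60 CPM over all libraries. The other 2, Thy1 and Lum, were at or near 0 in every library. Epithelial markers summed to 6.44 to 6.67 CPM at 72 h, 1.35 to 1.58 CPM at 24 h and 1.38 to 2.17 CPM in controls, with 2 of 6 tested and Krt5 at 0 everywhere. Macrophage, endothelial, adipocyte and skeletal muscle markers summed to at most 9.65, 4.71, 0.965 and 1.93 CPM in any library, and Adgre1, Adipoq, Lep and Myog were at 0. The part of these marker levels in the results below was not tested. In bulk RNA, fewer cells of a type and less RNA per cell cannot be told apart.

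Per kilobase of exon, the member with the highest level was Cyb5r3, the main NADH-cytochrome b5 reductase, at 96.9 CPM per kilobase at 72 h, 80.3 at 24 h and 73 in controls. Maoa, Dld, Cyb5r1 and Aifm1 came next in controls, at 56.6, 53, 42.2 and 31.6 CPM per kilobase. Rfk ranked 8 of 46 in controls at 22.5 CPM per kilobase, while Flad1 stood at 3.76, Slc52a2 at 4.12 and Slc52a3 at 0.306. The lowest tested member was Aox1, an aldehyde oxidase, at 0.161 CPM per kilobase in controls. Dmgdh, the mitochondrial dimethylglycine dehydrogenase, and Cyb5r2 had 0 counts in all libraries, which allows up to 0.167 to 0.196 CPM depending on the library (3 counts, counting error only). Sardh, the dehydrogenase of the next step after Dmgdh in choline breakdown, was present at 55.2 to 70.4 CPM. The other untested members were Dpyd, of pyrimidine breakdown, with 0 to 2 counts per library, and Maob, the second monoamine oxidase, with 1 to 14.

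**Figure D1:**
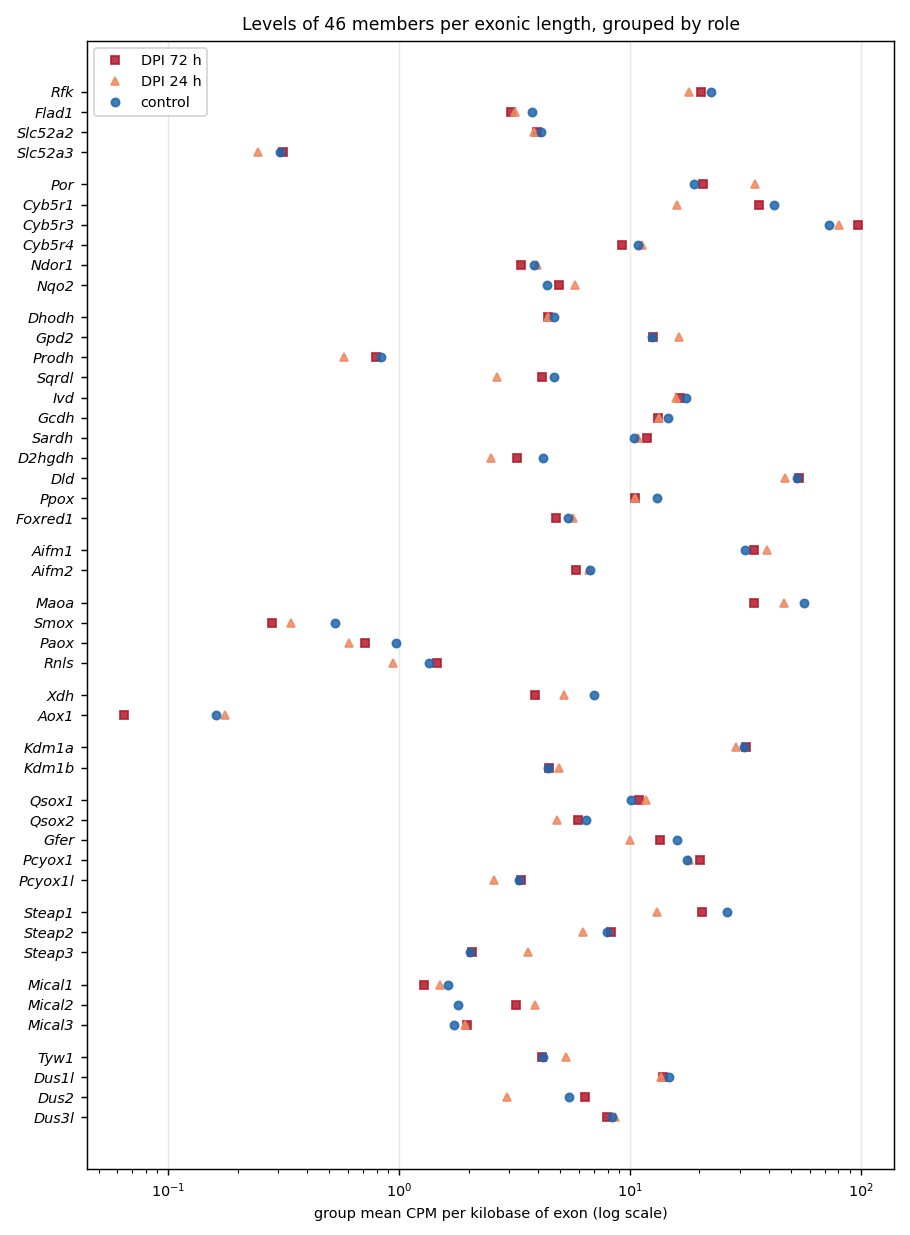
Group mean CPM per kilobase of exon (log axis) of the 46 tested members, grouped by role, with squares for DPI 72 h, triangles for DPI 24 h and circles for controls. Levels span from Cyb5r3 at 96.9 CPM per kilobase at 72 h down to Aox1 at 0.0644 at 72 h.

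After 24 h of DPI, 20 of the 46 tested members passed the test, 8 higher and 12 lower than controls, which is 43.5% of them. Of all genes tested, 24.7% passed, 12.4% higher and 12.3% lower. At 72 h, 5 members (10.9%) differed from controls, 2 higher and 3 lower, and 8.56% of all genes did, 4.73% higher and 3.83% lower. Between the exposures, 17 members (37%) differed, 9 higher and 8 lower at 72 h than at 24 h, against 21.3% of all genes, 10.1% higher and 11.2% lower. Calls came more often at high levels, and members were well expressed. Among genes of at least 10 CPM on average, a cut chosen after seeing the data, 50% of 38 members passed at 24 h and 30.9% of all such genes. The same shares were 13.2% and 10.7% at 72 h, and 44.7% and 25.9% between the exposures. The 3 comparisons share libraries, so their results are not independent.

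Members moved in both directions, and the median log2 change of the 46 was -0.12 at 24 h, -0.08 at 72 h and 0.01 between the exposures, beside -0.01, -0.01 and 0.00 over all genes. The groups did not overlap for 23 members at 24 h, against 40.5% of all genes, for 16 members at 72 h, against 27.1%, and for 27 members between the exposures, against 46.2%. A call is an adjusted p under 0.05 (Benjamini-Hochberg over all genes tested) in the quasi-likelihood test of edgeR. With each library left out in turn, 13 of the 20 calls at 24 h, 4 of the 5 at 72 h and 7 of the 17 between the exposures remained. The 8 higher calls at 24 h became 5 without control 1, control 3, DPI 24 h replicate 1 or DPI 24 h replicate 2. The 17 calls between the exposures became 9 without DPI 24 h replicate 1, 10 without DPI 24 h replicate 2, and 11 without DPI 72 h replicate 2 or 3. In that comparison 5 higher calls were left without DPI 24 h replicate 1 or DPI 72 h replicate 1. There were 4 lower calls there without DPI 24 h replicate 1 or 2 or DPI 72 h replicate 2 or 3, and 5 without DPI 24 h replicate 3. The share of all genes passing also moved as single libraries were left out, and spanned 16.3% to 30.6% at 24 h, 5.1% to 13.6% at 72 h and 13.5% to 32.8% between the exposures. Without control 2, 1965 genes passed at 72 h, against 1206 with all libraries, and 4729 passed between the exposures, against 3001. At 72 h, 782, 736 and 801 genes passed without DPI 72 h replicate 1, 2 and 3, and 1953 passed between the exposures without DPI 24 h replicate 3.

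**Figure D2:**
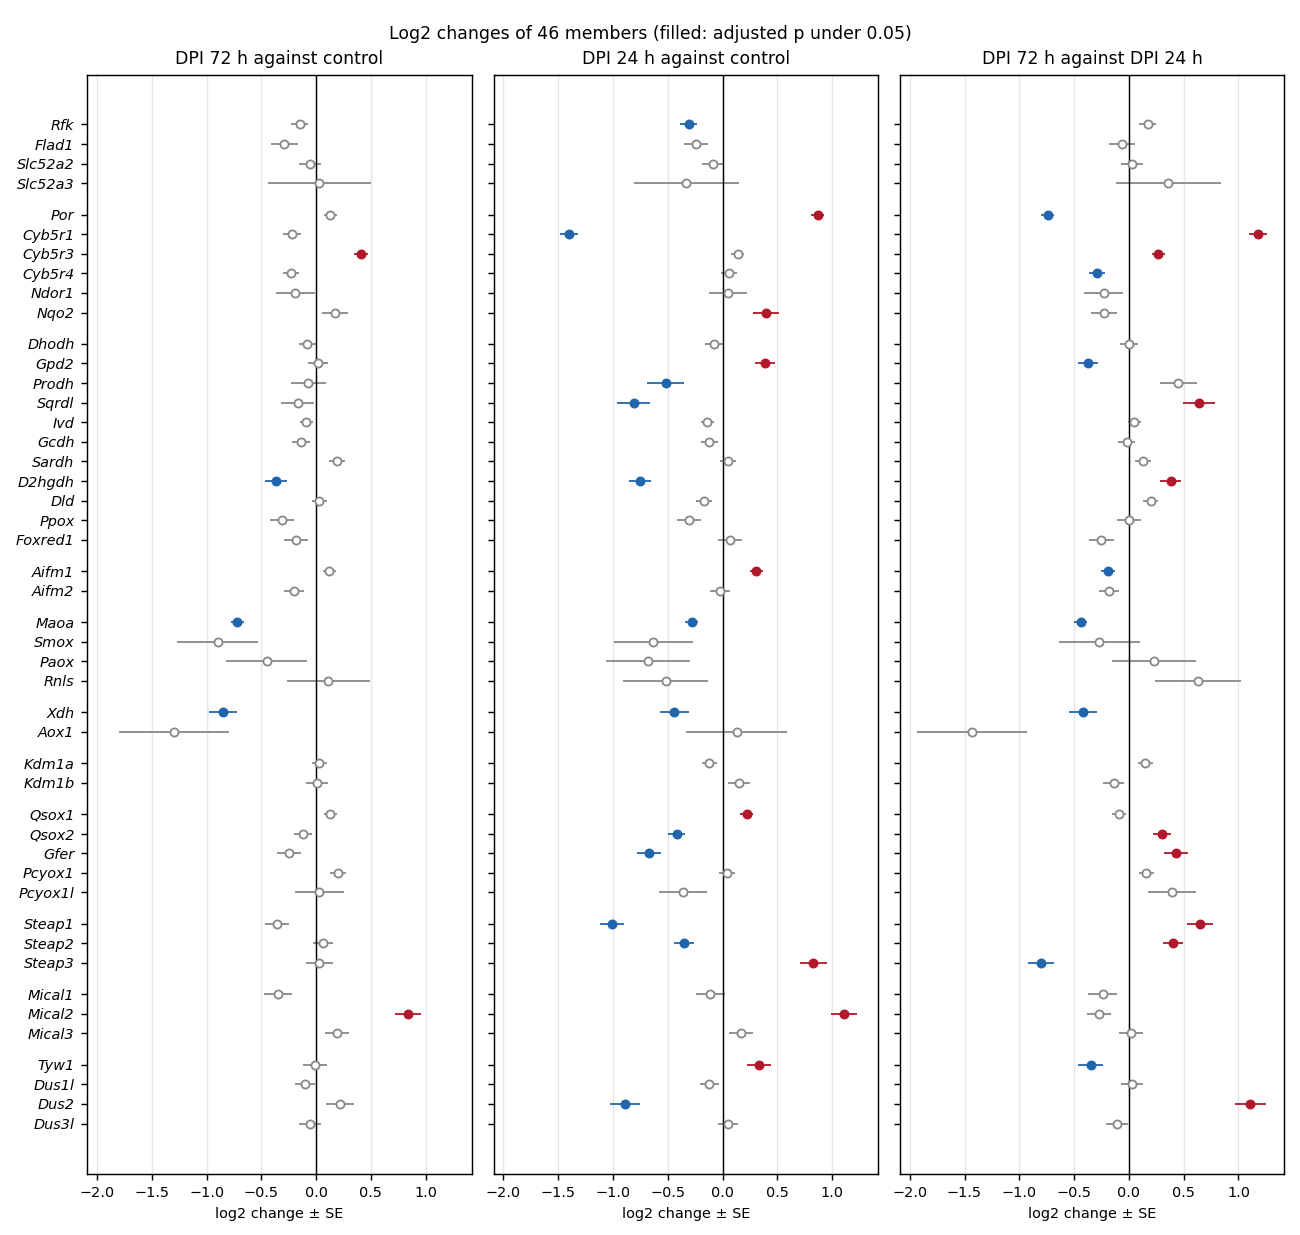
Log2 change with its standard error for the 46 tested members in the 3 comparisons, grouped by role. Filled points passed the test (red higher, blue lower), 5 at 72 h against control, 20 at 24 h against control and 17 at 72 h against 24 h.

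The 5 members with the largest changes at 24 h were Cyb5r1, Mical2, Steap1, Dus2 and Por, and the 150 bases before their RefSeq start sites are shown so that the promoters of the most responsive members can be compared. Coordinates are on GRCm38.p6, letters run 5′ to 3′ on the gene's strand, and capitals mark matches to the motifs searched.
Cyb5r1, chr1:134405631-134405780, plus strand: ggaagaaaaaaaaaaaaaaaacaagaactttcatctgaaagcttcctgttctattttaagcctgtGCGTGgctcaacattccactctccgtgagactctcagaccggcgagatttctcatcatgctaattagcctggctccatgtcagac
Mical2, chr7:112225686-112225835, plus strand: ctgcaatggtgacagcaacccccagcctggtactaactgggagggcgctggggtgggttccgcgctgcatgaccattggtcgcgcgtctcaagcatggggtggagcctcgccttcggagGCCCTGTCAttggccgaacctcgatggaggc
Steap1, chr5:5749318-5749467, minus strand: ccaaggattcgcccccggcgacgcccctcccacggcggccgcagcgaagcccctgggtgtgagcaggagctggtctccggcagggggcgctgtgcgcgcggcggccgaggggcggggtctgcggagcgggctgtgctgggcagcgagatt
Dus2, chr8:106011328-106011477, plus strand: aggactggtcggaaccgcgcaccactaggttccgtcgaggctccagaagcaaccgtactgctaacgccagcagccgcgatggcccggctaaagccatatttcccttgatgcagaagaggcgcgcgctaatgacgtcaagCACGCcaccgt
Por, chr5:135688995-135689144, plus strand: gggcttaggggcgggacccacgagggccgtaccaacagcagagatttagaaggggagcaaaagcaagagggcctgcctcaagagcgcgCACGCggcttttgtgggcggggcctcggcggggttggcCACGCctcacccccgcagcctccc

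The motifs, searched on both strands, were the hypoxia core (ACGTG or GCGTG), an antioxidant element (TGACNNNGC), a C/EBP-ATF element (TGATGNAA), a sterol element (TCACNCCAC) and an interferon element (GAAA, then NN, then GAAA). The hypoxia core matched 85 bases before the start of Cyb5r1, 11 before that of Dus2, and 24 and 62 before that of Por. Mical2 had an antioxidant match 31 bases before its start, and the stretch of Steap1 had none of the 5. Base composition differed widely between the stretches, from 42.7% G and C in Cyb5r1 to 76.7% in Steap1. In the full windows of 250 bases before to 50 after the start, 33 of 52 windows of 42 members (63.5%) held the hypoxia core, and 43.8% of all 32851 windows did. The windows of Mical2 and Steap1 were among the 33, with matches not wholly inside the stretches shown. The antioxidant element was in 6 member windows (11.5%, against 12.4% of all), the C/EBP-ATF element in 3 (5.77%, against 3.97%), the interferon element in 2 (3.85%, against 3.44%) and the sterol element in 1, that of D2hgdh (1.92%, against 1.24%). A match describes letters only, and windows were not matched on base composition.

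Of the 4 supply genes, 1 passed at 24 h (25%, beside 24.7% of all genes) and 0 at 72 h by edgeR, DESeq2 or limma voom, where 1 had an unadjusted edgeR p under 0.05. Rfk, on chromosome 19 from 17394043 to 17401349 (GRCm38, as for all genes here), was at 51.1, 55.2 and 52.3 CPM at 72 h, at 49, 47.8 and 44.5 CPM at 24 h and at 53.4, 64.5 and 57.5 CPM in controls. All DPI 24 h libraries lay below all controls, while the DPI 72 h libraries overlapped them. Rfk fell by 0.31 on the log2 scale at 24 h (SE 0.08, edgeR adjusted p = 0.0148), with adjusted p = 0.0684 without DPI 24 h replicate 3. At 72 h its log2 difference was -0.15 (edgeR adjusted p = 0.311). Between the exposures it was 0.17 (edgeR adjusted p = 0.172), with adjusted p = 0.0431 without control 2.

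Flad1 was at 13.2, 13.1 and 11.3 CPM at 72 h, at 14.4, 12 and 12.7 CPM at 24 h and at 14.1, 16.7 and 15.3 CPM in controls. The 72 h libraries all lay below the controls, and the difference did not pass at either time, with log2 values of -0.29 at 72 h and -0.24 at 24 h (SE 0.12 and 0.11, edgeR adjusted p = 0.156 and 0.163). Exons of Lenep on the same strand cover 43.8% of its exonic length, so its counts are uncertain. The riboflavin carrier Slc52a2 was at 24.4, 21.9 and 19 CPM at 72 h, at 19.5, 21 and 23.2 CPM at 24 h and at 22.7, 23.3 and 21.9 CPM in controls. Its groups overlapped throughout, with log2 differences of -0.06 at 72 h and -0.09 at 24 h (SE 0.10 each). The second carrier tested, Slc52a3, was at 1.03, 0.865 and 0.71 CPM at 72 h, at 0.673, 0.853 and 0.507 CPM at 24 h and at 0.362, 1.16 and 1.02 CPM in controls. With 6 to 21 counts per library, its SE was 0.47 at 72 h and 0.48 at 24 h, so changes of that size were not detectable at this depth.

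**Figure D3:**
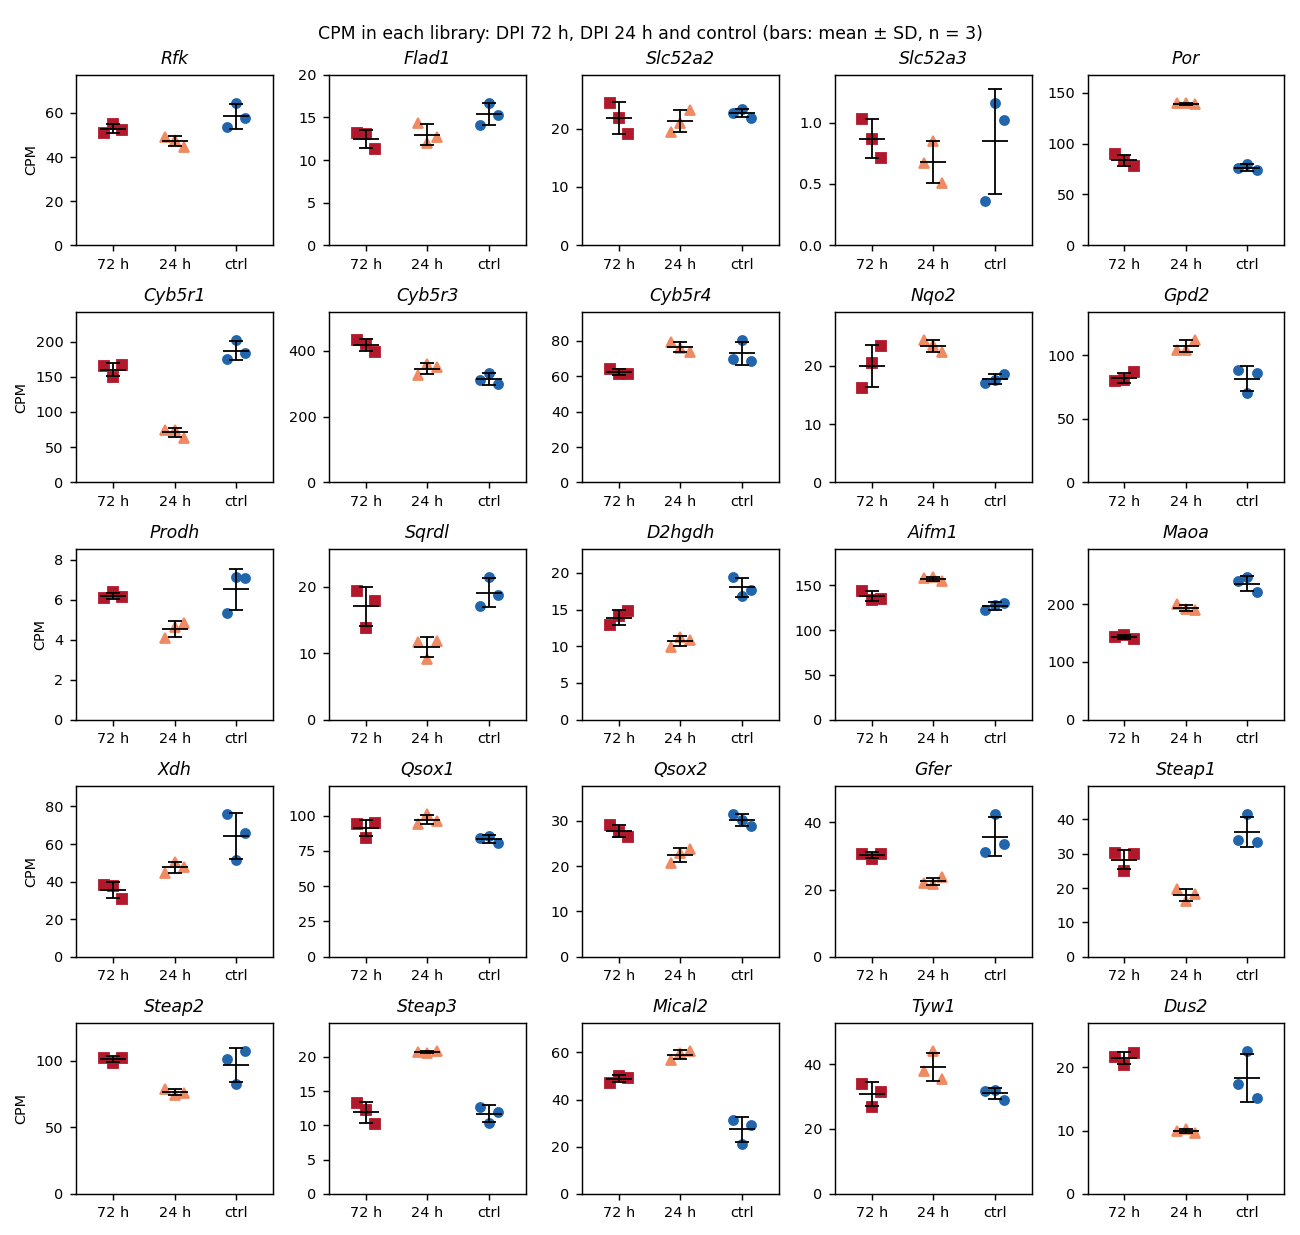
CPM in each library (y axis, from 0) of the 22 members that passed in at least 1 comparison and of the supply genes Flad1, Slc52a2 and Slc52a3, for DPI 72 h, DPI 24 h and controls, with bars for mean and SD (n = 3). Cyb5r1, Steap1, Dus2 and Gfer have their lowest libraries at 24 h, Por and Steap3 their highest there, and Maoa its lowest at 72 h.

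Among reductases that take electrons from NADH or NADPH, Por rose and Cyb5r1 fell at 24 h, and Cyb5r3 rose at 72 h. Por, the NADPH-cytochrome P450 reductase, carries both FAD and FMN and feeds microsomal P450 enzymes and heme oxygenase. Por lies on chromosome 5 from 135670033 to 135735326. It was at 89.5, 82.8 and 78.2 CPM at 72 h, at 140, 140 and 139 CPM at 24 h and at 75.7, 80 and 73.7 CPM in controls. All 24 h libraries stood above all others, and the 72 h libraries overlapped the controls. Por rose by 0.87 on the log2 scale at 24 h (SE 0.06, edgeR adjusted p = 5.76e-06), differed by 0.13 from controls at 72 h (adjusted p = 0.284) and was lower at 72 h than at 24 h, with a log2 difference of -0.74 (adjusted p = 1.75e-05).

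Cyb5r1, a membrane-bound NADH-cytochrome b5 reductase, moved the other way and was the member with the largest log2 change at 24 h. It lies on chromosome 1 from 134405559 to 134411740. Its levels were 165, 150 and 166 CPM at 72 h, 75, 74.3 and 63.4 CPM at 24 h and 175, 202 and 184 CPM in controls. All 24 h libraries lay far below the rest, and the 72 h libraries lay just under the controls without overlap. Cyb5r1 fell by 1.40 on the log2 scale at 24 h (SE 0.08, edgeR adjusted p = 1.21e-06), differed by -0.22 at 72 h (adjusted p = 0.127) and was higher at 72 h than at 24 h by 1.18 (adjusted p = 4.48e-06).

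Cyb5r3, on chromosome 15 from 83153494 to 83172592, reduces cytochrome b5 for fatty acid desaturation and sterol synthesis. It was at 432, 421 and 396 CPM at 72 h, at 327, 360 and 349 CPM at 24 h and at 310, 332 and 299 CPM in controls. The 72 h libraries were above all others, and the 24 h libraries overlapped the controls. Cyb5r3 rose by 0.41 on the log2 scale at 72 h (SE 0.06, edgeR adjusted p = 0.00238), and by 0.27 at 72 h against 24 h (adjusted p = 0.0127). The second of these calls was lost without DPI 24 h replicate 1 (edgeR adjusted p = 0.0653) or DPI 72 h replicate 1 (adjusted p = 0.053). At 24 h the log2 difference from controls was 0.14 (edgeR adjusted p = 0.154), and 0.18 without control 2 (adjusted p = 0.0205).

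Cyb5r4, a soluble member of the family, was at 64.3, 61.3 and 61.6 CPM at 72 h, at 79.3, 76.1 and 73.8 CPM at 24 h and at 69.8, 80.5 and 68.8 CPM in controls. Its 72 h libraries were below all others. It differed between the exposures alone, with a log2 value of -0.29 for 72 h against 24 h (SE 0.07, edgeR adjusted p = 0.0152). That call was lost without DPI 24 h replicate 1 or 2 or DPI 72 h replicate 2 or 3, at edgeR adjusted p from 0.0522 to 0.0663. When scaled by library totals, Cyb5r4 also passed at 72 h against controls, at a log2 value of -0.27 (edgeR adjusted p = 0.0405). Nqo2, a quinone reductase, was at 16.2, 20.4 and 23.4 CPM at 72 h, at 24.4, 23.5 and 22.4 CPM at 24 h and at 17, 17.5 and 18.6 CPM in controls. The 24 h libraries were all above the controls, and the 72 h libraries spread across both. Nqo2 rose by 0.40 on the log2 scale at 24 h (SE 0.12, edgeR adjusted p = 0.0315). The call was lost without control 1, control 3 or any DPI 24 h replicate, at edgeR adjusted p from 0.0552 to 0.101, and exons of Serpinb6a on the opposite strand cover 18.9% of the gene. Ndor1, a diflavin reductase that gives electrons to the cytosolic iron-sulfur assembly machinery, ranged from 13.5 to 25.5 CPM and passed in no comparison. A second ID with the same symbol lies within its exons and had 62 counts over all libraries, so the counts of Ndor1 are uncertain.

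Of 11 mitochondrial oxidoreductases tested, 1 rose and 3 fell at 24 h (36.4%, beside 24.7% of all genes), and 1 fell at 72 h (9.09%, near the 8.56% of all genes). Gpd2, the glycerol-3-phosphate dehydrogenase that hands cytosolic electrons to ubiquinone, was at 79.7, 80.8 and 86.6 CPM at 72 h, at 104, 104 and 112 CPM at 24 h and at 88.2, 70.1 and 85.8 CPM in controls. Each 24 h library was above every library of the other groups. Gpd2 rose by 0.39 on the log2 scale at 24 h (SE 0.09, edgeR adjusted p = 0.00745) and was lower at 72 h than at 24 h, with a log2 difference of -0.37 (adjusted p = 0.0109), a call lost without DPI 24 h replicate 3 (adjusted p = 0.0553). At 72 h against controls the log2 difference was 0.02.

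Sqrdl, the sulfide:quinone oxidoreductase of hydrogen sulfide oxidation, was at 19.4, 13.8 and 17.9 CPM at 72 h, at 11.6, 9.14 and 11.8 CPM at 24 h and at 17.1, 21.4 and 18.7 CPM in controls. The 24 h libraries were below all others. Sqrdl fell by 0.81 on the log2 scale at 24 h (SE 0.15, edgeR adjusted p = 0.00295), and was higher at 72 h than at 24 h by 0.64 (adjusted p = 0.0122). The second call was lost without DPI 24 h replicate 2 (edgeR adjusted p = 0.0542) or DPI 72 h replicate 1 (adjusted p = 0.0541).

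D2hgdh, which oxidizes D-2-hydroxyglutarate, was at 12.9, 14.1 and 14.8 CPM at 72 h, at 9.91, 11.2 and 10.9 CPM at 24 h and at 19.4, 16.9 and 17.7 CPM in controls. The 3 groups did not overlap, with 24 h lowest and controls highest. D2hgdh fell by 0.75 on the log2 scale at 24 h (SE 0.10, edgeR adjusted p = 0.000419) and by 0.37 at 72 h (SE 0.10, adjusted p = 0.047), and was higher at 72 h than at 24 h by 0.38 (adjusted p = 0.0236). The call at 72 h was lost with DESeq2, and without any library other than control 2, at edgeR adjusted p from 0.0603 to 0.159. The call between the exposures was lost without DPI 24 h replicate 1 or 3 or DPI 72 h replicate 2 or 3, at edgeR adjusted p from 0.0553 to 0.0898.

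Prodh, the proline dehydrogenase, was at 6.07, 6.36 and 6.13 CPM at 72 h, at 4.1, 4.63 and 4.85 CPM at 24 h and at 5.31, 7.12 and 7.1 CPM in controls. All libraries of 24 h were below all others. Prodh fell by 0.52 on the log2 scale at 24 h (SE 0.17, edgeR adjusted p = 0.0411), and the call was lost with DESeq2, and without any library other than control 1, at adjusted p from 0.0545 to 0.127. Dhodh, the FMN enzyme of pyrimidine synthesis, ranged from 26.7 to 31.8 CPM over the 9 libraries, with log2 differences of -0.08 at 72 h and at 24 h (SE 0.08 each). Ivd and Gcdh, dehydrogenases of leucine and of lysine and tryptophan breakdown, and Foxred1, an assembly factor of complex I, passed in no comparison. Dld, the shared dihydrolipoyl dehydrogenase of the 2-oxoacid complexes, was at 198 to 200 CPM at 72 h, 170 to 177 CPM at 24 h and 182 to 213 CPM in controls. It missed the threshold, with log2 differences of 0.20 between the exposures (edgeR adjusted p = 0.052) and -0.17 at 24 h (adjusted p = 0.076). Dld passed between the exposures without control 2 (edgeR adjusted p = 0.0016) or control 3 (adjusted p = 0.0432) and at 24 h without control 3 (adjusted p = 0.0387). With all libraries, it also passed between the exposures by DESeq2 (adjusted p = 0.0269) and limma voom (adjusted p = 0.0464). Ppox, the FAD enzyme of heme synthesis, had log2 differences of -0.31 at both times (edgeR adjusted p = 0.118 at 72 h and 0.0616 at 24 h), and of -0.42 at both times without control 1 (adjusted p = 0.0247 at 72 h and 0.0104 at 24 h).

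Aifm1, the mitochondrial apoptosis-inducing factor, was at 144, 134 and 135 CPM at 72 h, at 158, 159 and 155 CPM at 24 h and at 122, 128 and 130 CPM in controls. The 3 groups did not overlap. Aifm1 rose by 0.31 on the log2 scale at 24 h (SE 0.06, edgeR adjusted p = 0.00247), and was lower at 72 h than at 24 h, with a log2 difference of -0.19 (adjusted p = 0.036). The second call was lost without any DPI 24 h replicate or without DPI 72 h replicate 2 or 3, at edgeR adjusted p from 0.0946 to 0.139. Aifm2, which reduces ubiquinone at the plasma membrane and protects lipids from peroxidation, ranged from 21.3 to 28.6 CPM and passed in no comparison.

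Among enzymes that oxidize amines and purines, Maoa and Xdh fell at both times and stood lower at 72 h than at 24 h. Maoa, the outer-membrane monoamine oxidase on chromosome X from 16619698 to 16687818, was at 143, 146 and 140 CPM at 72 h, at 200, 191 and 190 CPM at 24 h and at 240, 247 and 221 CPM in controls. The 3 groups did not overlap, with controls highest and 72 h lowest. Maoa fell by 0.72 on the log2 scale at 72 h (SE 0.06, edgeR adjusted p = 3.18e-05) and by 0.28 at 24 h (SE 0.06, adjusted p = 0.00605), with -0.44 for 72 h against 24 h (adjusted p = 0.000472). All of these calls remained with each library left out.

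Xdh, the xanthine dehydrogenase of purine breakdown, is on chromosome 17 from 73883895 to 73950196. It was at 38.3, 37.7 and 30.8 CPM at 72 h, at 44.4, 50.2 and 47.9 CPM at 24 h and at 75.8, 51.5 and 66.1 CPM in controls. Its groups did not overlap, although control 2 was near the 24 h libraries. Xdh fell by 0.85 on the log2 scale at 72 h (SE 0.13, edgeR adjusted p = 0.00212), a call that remained with each library left out, and by 0.44 at 24 h (SE 0.13, adjusted p = 0.0318). The 24 h call was lost without control 1, control 3 or any DPI 24 h replicate, at edgeR adjusted p from 0.0612 to 0.112. The difference of -0.42 between the exposures (edgeR adjusted p = 0.0493) was lost with limma voom or DESeq2-type size factors, and without control 3 or any DPI library, at adjusted p from 0.0656 to 0.181. Aox1 had 8 to 34 counts per library, at 0.494 to 0.668 CPM at 72 h, 0.975 to 2.08 CPM at 24 h and 0.607 to 1.93 CPM in controls. Its log2 difference was -1.30 at 72 h (SE 0.50, edgeR adjusted p = 0.146), and -1.67 without control 2 (adjusted p = 0.029). Between the exposures it was -1.43 (edgeR adjusted p = 0.0641), with adjusted p = 0.02 without control 2. By DESeq2 with all libraries, Aox1 passed between the exposures (adjusted p = 0.0464). Smox and Paox, oxidases of polyamines, and Rnls, renalase, were at 1.01 to 6.4 CPM and passed in no comparison. Paox passed at 24 h without control 3 alone, at a log2 value of -1.03 (edgeR adjusted p = 0.0256).

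Kdm1a and Kdm1b, the FAD-dependent histone demethylases, passed in no comparison by edgeR, DESeq2 or limma voom, and 0 of the 2 had an unadjusted p under 0.05. Kdm1a was at 169, 151 and 173 CPM at 72 h, at 156, 148 and 142 CPM at 24 h and at 154, 162 and 169 CPM in controls. Its groups overlapped, with log2 differences of 0.03 at 72 h and -0.12 at 24 h (SE 0.07 each). Kdm1b differed by 0.01 at 72 h and 0.15 at 24 h (SE 0.10 each).

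Of 5 thiol and prenylcysteine oxidases, 1 rose and 2 fell at 24 h (60%, beside 24.7% of all genes). At 72 h 0 passed by edgeR, DESeq2 or limma voom, and 2 had an unadjusted edgeR p under 0.05. Gfer, the sulfhydryl oxidase that reoxidizes the disulfide relay of mitochondrial import, was at 30.7, 29.2 and 30.7 CPM at 72 h, at 22, 21.6 and 23.7 CPM at 24 h and at 31.2, 42.4 and 33.7 CPM in controls. The groups did not overlap, with 24 h lowest. Gfer fell by 0.67 on the log2 scale at 24 h (SE 0.11, edgeR adjusted p = 0.00114), differed by -0.25 at 72 h (adjusted p = 0.201) and was higher at 72 h than at 24 h by 0.43 (adjusted p = 0.0173). The last call was lost without DPI 24 h replicate 1 or 2 or DPI 72 h replicate 1 or 3, at edgeR adjusted p from 0.0574 to 0.0696.

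The sulfhydryl oxidases of the secretory pathway, Qsox1 and Qsox2, moved in opposite directions at 24 h. Qsox2 was at 29.1, 27.5 and 26.5 CPM at 72 h, at 20.7, 22.8 and 23.8 CPM at 24 h and at 31.4, 30.1 and 28.8 CPM in controls. Each 24 h library was below every library of the other groups. Qsox2 fell by 0.42 on the log2 scale at 24 h (SE 0.08, edgeR adjusted p = 0.00285) and was higher at 72 h than at 24 h by 0.30 (adjusted p = 0.0194), a call lost without replicate 1 or 2 of either DPI group, at adjusted p from 0.0545 to 0.0823. Qsox1 was at 94.2, 84.4 and 95 CPM at 72 h, at 94.4, 101 and 96.1 CPM at 24 h and at 84.4, 85.8 and 80.5 CPM in controls. Its 24 h libraries were above all controls. Qsox1 rose by 0.22 on the log2 scale at 24 h (SE 0.06, edgeR adjusted p = 0.0323), a call lost when scaled by library totals, and without control 1, control 3 or any DPI 24 h replicate, at adjusted p from 0.0627 to 0.13. Pcyox1 and Pcyox1l, of which the first breaks down prenylcysteine, passed in no comparison. Without control 2, Pcyox1 was higher at 72 h than at 24 h by 0.16 (edgeR adjusted p = 0.0148), and without control 1, Pcyox1l had a log2 difference of -0.60 at 24 h (adjusted p = 0.0242). With a length and GC correction, Pcyox1 passed as higher than controls at 72 h by 0.22 (edgeR adjusted p = 0.0285).

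All 3 Steap metalloreductases among the members passed at 24 h, where 24.7% of all genes did, and between the exposures, where 21.3% did. Steap4, of the same family but not a member here, had 0 to 2 counts per library and was not tested. Of the 3, 0 passed at 72 h against controls by edgeR, DESeq2 or limma voom, where 1 had an unadjusted edgeR p under 0.05. These membrane proteins bind heme, and Steap2 and Steap3 reduce iron and copper with electrons from NADPH. Steap1, on chromosome 5 from 5736317 to 5749326, was at 30.1, 25 and 29.8 CPM at 72 h, at 19.6, 16.1 and 18.4 CPM at 24 h and at 34.1, 41.5 and 33.5 CPM in controls. The groups did not overlap, with 24 h lowest. Steap1 fell by 1.01 on the log2 scale at 24 h (SE 0.11, edgeR adjusted p = 0.000109), differed by -0.36 at 72 h (adjusted p = 0.071) and was higher at 72 h than at 24 h by 0.65 (adjusted p = 0.00238). The 72 h difference of Steap1 did pass with no filter on low counts (edgeR adjusted p = 0.0155) or when scaled by library totals (adjusted p = 0.0461).

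Steap2 was at 102, 98.1 and 102 CPM at 72 h, at 78.7, 74.1 and 75.7 CPM at 24 h and at 101, 82.7 and 107 CPM in controls. The 24 h libraries were below all others, and control 2 was the control nearest to them. Steap2 fell by 0.35 on the log2 scale at 24 h (SE 0.09, edgeR adjusted p = 0.0145), with adjusted p = 0.0552 without DPI 24 h replicate 2, and was higher at 72 h than at 24 h by 0.40 (adjusted p = 0.00745). Steap3, the ferrireductase of the transferrin cycle on chromosome 1 from 120190757 to 120272705, was at 13.3, 12.2 and 10.2 CPM at 72 h, at 20.7, 20.6 and 20.8 CPM at 24 h and at 12.7, 10.3 and 12 CPM in controls. It was higher in every 24 h library than in any other. Steap3 rose by 0.83 on the log2 scale at 24 h (SE 0.12, edgeR adjusted p = 0.000547), differed by 0.03 at 72 h (adjusted p = 0.923) and was lower at 72 h than at 24 h, with a log2 difference of -0.80 (adjusted p = 0.00071).

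Of the MICAL monooxygenases, which oxidize actin, Mical2 rose at both times. The gene is on chromosome 7 from 112225856 to 112413106. It was at 47.1, 50.2 and 49.2 CPM at 72 h, at 56.9, 59.7 and 60.4 CPM at 24 h and at 31.5, 21.3 and 29.2 CPM in controls. The groups did not overlap, with 24 h highest and control 2 lowest of all libraries. Mical2 rose by 0.84 on the log2 scale at 72 h (SE 0.12, edgeR adjusted p = 0.0011) and by 1.11 at 24 h (SE 0.12, adjusted p = 7.04e-05), and both calls remained with each library left out. Between the exposures the difference was -0.27 (edgeR adjusted p = 0.12), and adjusted p = 0.00189 without control 2. Mical1 and Mical3 passed in no comparison, with log2 differences of -0.35 and 0.19 at 72 h and -0.11 and 0.17 at 24 h.

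Among the FMN enzymes that modify transfer RNA, Dus2 fell at 24 h. Dus2, a dihydrouridine synthase on chromosome 8 from 105991337 to 106053840, was at 21.7, 20.4 and 22.3 CPM at 72 h, at 9.85, 10.3 and 9.64 CPM at 24 h and at 17.4, 22.5 and 15.1 CPM in controls. All libraries of 24 h were below all others, and the 72 h libraries overlapped the controls. Dus2 fell by 0.89 on the log2 scale at 24 h (SE 0.14, edgeR adjusted p = 0.000901) and was higher at 72 h than at 24 h by 1.11 (adjusted p = 0.000209). At 72 h against controls it differed by 0.22 (edgeR adjusted p = 0.356), and by 0.40 without control 2 (adjusted p = 0.0239).

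Tyw1, which acts in the synthesis of wybutosine in phenylalanine transfer RNA, was at 34, 26.7 and 31.3 CPM at 72 h, at 37.8, 43.9 and 35.5 CPM at 24 h and at 31.8, 32.1 and 29 CPM in controls. Each 24 h library was above every library of the other groups. Tyw1 rose by 0.33 on the log2 scale at 24 h (SE 0.11, edgeR adjusted p = 0.0401), a call lost when scaled by library totals, and without control 1, control 3, DPI 24 h replicate 1 or 2 or DPI 72 h replicate 3, at adjusted p from 0.0621 to 0.168. The difference of -0.35 between the exposures (edgeR adjusted p = 0.0383) was lost without DPI 24 h replicate 1 or 2 or DPI 72 h replicate 2 or 3, at adjusted p from 0.0779 to 0.158. The other dihydrouridine synthases among the members, Dus1l and Dus3l, passed in no comparison. Their log2 differences were -0.10 and -0.06 at 72 h and -0.12 and 0.05 at 24 h. A synthase counted below with other flavoprotein genes, Dus4l, averaged 20.8 CPM at 72 h, 12.2 CPM at 24 h and 22.5 CPM in controls.

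By cofactor, 16 of 35 tested FAD enzymes passed at 24 h, 6 higher and 10 lower, as did 2 of 5 FMN enzymes (Tyw1 higher and Dus2 lower) and 1 of 2 enzymes with both cofactors (Por). These shares were 45.7%, 40% and 50%, beside 24.7% of all genes. At 72 h the 5 calls were all FAD enzymes (14.3% of them, beside 8.56% of all genes), and 0 of 5 FMN enzymes passed by edgeR, DESeq2 or limma voom, or had an unadjusted p under 0.05. The median log2 change at 24 h was -0.12 for FAD enzymes and -0.08 for FMN enzymes. No test of a difference between cofactors was made.

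Genes that work beside these enzymes were counted in lists chosen by function, to be read beside the 24.7% of all genes called at 24 h and the 8.56% at 72 h. Of 35 other flavoprotein genes tested, 4 rose and 9 fell at 24 h, and 4 rose and 1 fell at 72 h, which is 37.1% and 14.3% of them, with 5 calls at 72 h becoming 3 without DPI 72 h replicate 1. Among them, Sqle, the squalene epoxidase that receives electrons from Por, averaged 189 CPM at 72 h, 295 CPM at 24 h and 130 CPM in controls, with log2 changes of 0.55 at 72 h and 1.18 at 24 h (edgeR adjusted p = 0.000107 and 1.83e-07). Ero1l, the FAD oxidase of protein disulfide isomerase, averaged 320 CPM at 72 h, 76.2 CPM at 24 h and 240 CPM in controls, so that it fell by 1.66 on the log2 scale at 24 h (edgeR adjusted p = 1.83e-07) and rose by 0.41 at 72 h (adjusted p = 0.00519).

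Of the 8 lists, partners of cytochrome b5 and P450 had the highest share of calls against controls, 53.8% at 72 h and 76.9% at 24 h. Of 13 tested, 8 rose and 2 fell at 24 h, with a median of 0.57, and 7 rose at 72 h, with a median of 0.22, beside -0.01 over all genes at both times. Cyp51, the sterol demethylase that draws on Por, averaged 223 CPM at 72 h, 482 CPM at 24 h and 154 CPM in controls, and rose by 0.53 and 1.64 on the log2 scale (edgeR adjusted p = 0.000451 and 9.64e-08). Sc5d and Msmo1, sterol oxidases served by cytochrome b5, rose by 1.14 and 1.46 at 24 h (edgeR adjusted p = 2.97e-07 and 5.77e-07). They averaged 73.2 and 223 CPM at 72 h, 127 and 409 CPM at 24 h and 57.6 and 149 CPM in controls. The desaturases Scd1 and Scd2 rose by 0.52 and 0.78 at 72 h (edgeR adjusted p = 0.000477 and 2.19e-06). Scd1 averaged 475 CPM at 72 h, 557 CPM at 24 h and 332 CPM in controls, and Scd2 2727, 2743 and 1584 CPM. Not every gene of the list rose. The cytochrome b5 gene Cyb5a averaged 22.8 CPM at 72 h, 22.9 CPM at 24 h and 27.8 CPM in controls. Hmox1, a heme oxygenase, averaged 107, 97.4 and 125 CPM in the same order, and the P450 gene Cyp1b1 75.6, 84 and 95.4 CPM. Between the exposures, 7 of the 13 passed as lower at 72 h than at 24 h and 0 as higher by edgeR (53.8%, beside 21.3% of all genes).

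In the list of sulfide and proline genes beside Sqrdl and Prodh, 4 of 10 (40%) fell at 24 h and 0 rose by edgeR. Cth, which makes cysteine and can release hydrogen sulfide, averaged 73.7 CPM at 72 h, 10.6 CPM at 24 h and 86.4 CPM in controls, a log2 change of -3.02 at 24 h (edgeR adjusted p = 3.39e-09). The proline synthesis genes Pycr1 and Aldh18a1 fell by 2.06 and 0.67 at 24 h (edgeR adjusted p = 9.64e-08 and 9.07e-06), and Aldh18a1 rose by 0.29 at 72 h (adjusted p = 0.00545), the list's 1 call there (10%, near the share of all genes). That count was 2 without control 1 or control 2.

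Beside Smox and Paox, 1 of 8 polyamine genes rose and 1 fell at each time, a share of 25%, which at 24 h is that of all genes (24.7%). Odc1, the first enzyme of polyamine synthesis, averaged 793 CPM at 72 h, 362 CPM at 24 h and 746 CPM in controls, and fell by 1.04 on the log2 scale at 24 h (edgeR adjusted p = 5.21e-06). Of 7 heme synthesis genes, 2 fell at 24 h (28.6%, near the share of all genes) and 1 at 72 h (14.3%). Cpox, whose product Ppox oxidizes, averaged 129 CPM at 72 h, 69.8 CPM at 24 h and 143 CPM in controls, and fell by 1.03 at 24 h (edgeR adjusted p = 5.97e-06). Of 10 partners of Dld in the 2-oxoacid dehydrogenase complexes, 1 rose and 3 fell at 24 h, with Dlat at a log2 value of -0.45 (edgeR adjusted p = 0.000692), and 1 fell at 72 h, shares of 40% and 10%. Of 5 nucleotide genes, 2 rose at 24 h (40%) and 1 at 72 h (20%). The 2 calls of heme genes at 24 h became 1 without DPI 24 h replicate 1 or 3 or any DPI 72 h replicate, and the 2 of nucleotide genes became 1 without DPI 24 h replicate 1 or 2. The 4 calls of Dld partners at 24 h became 2 without DPI 24 h replicate 3, and the 1 at 72 h became 0 without control 3 or any DPI 72 h replicate. At 72 h the 1 call of nucleotide genes became 0 without control 3 or DPI 72 h replicate 1 or 2. The 2 calls of polyamine genes became 5 at 24 h without control 2, and at 72 h 1 without control 3 or DPI 72 h replicate 3 and 0 without DPI 72 h replicate 2. Of 8 partners of the Kdm1a complex, 0 passed at either time by edgeR, DESeq2 or limma voom, with 1 unadjusted edgeR p under 0.05 at each time. Without control 2, 1 of them passed at 72 h and 3 at 24 h. Between the exposures, 2 of the 8 passed as higher at 72 h than at 24 h (25%, beside 21.3% of all genes). These were Rcor2 by 0.41 and Hdac2 by 0.24 on the log2 scale (edgeR adjusted p = 0.0111 and 0.0335).

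**Figure D4:**
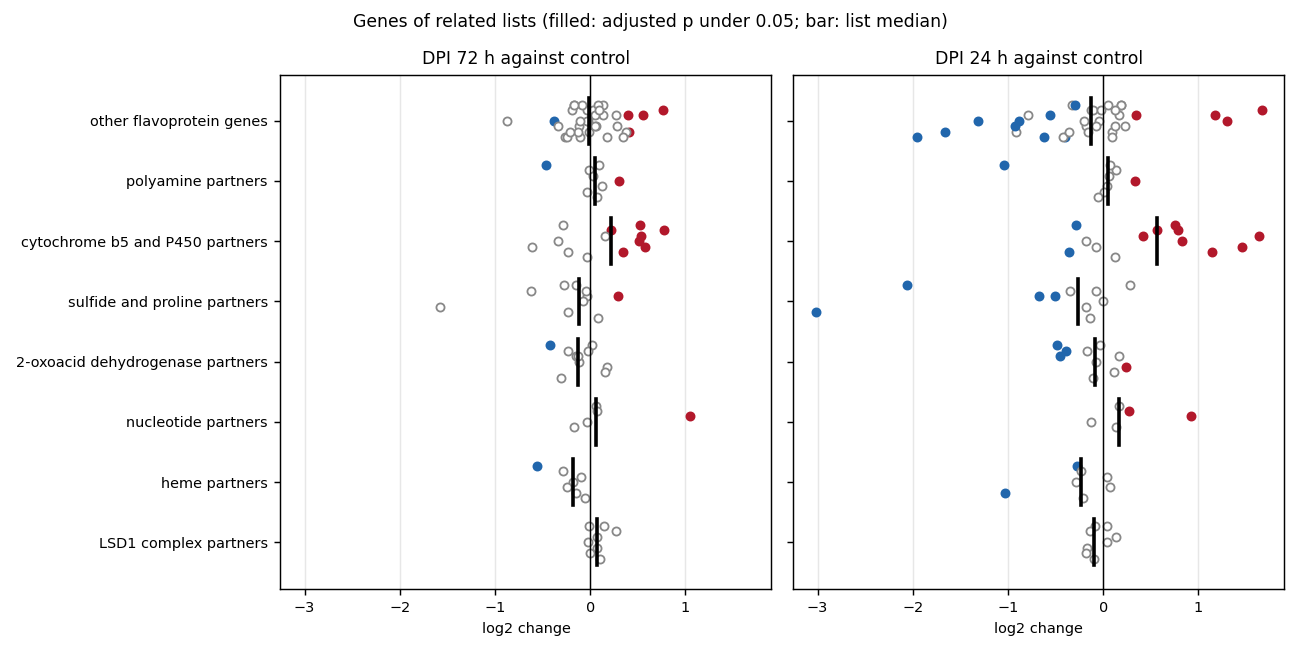
Log2 change of each tested gene of the 8 related lists at 72 h (left) and 24 h (right) against controls, with a black bar at the list's median. Filled points passed the test (red higher, blue lower), and the cytochrome b5 and P450 partners have medians of 0.22 at 72 h and 0.57 at 24 h.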

How the data were processed

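RNA from MAFs was extracted with a column kit, and libraries were made with an Illumina TruSeq kit, per the labels' protocols. The build GRCm38 and the tools STAR, RSEM, edgeR, limma, cutadapt and Trim Galore come from the submitters' processing notes, which state neither their versions nor their order. Strand setting and annotation release are not given in the sources used, so overlapping genes on either strand cannot be told apart. Exons of another gene overlap those of 17 members.

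The authors deposited raw counts as whole numbers, 1 per Ensembl gene and library, and these were used. A second table named as normalized held 159498 values, all equal to those counts, and was not used. Symbols and exonic lengths came from GENCODE for GRCm38, and promoters from RefSeq for GRCm38.p6. The reference tables used here hold no protein sequences, so none are shown.

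Genes were filtered with filterByExpr by group (14088 kept, at least 99.87% of counts) with TMM scaling (0.98 to 1.02). The model had 1 mean for each group over all 9 libraries and was run under R 4.3.3 with glmQLFit and two-sided glmQLFTest of edgeR 4.0.16, with Benjamini-Hochberg adjustment over all genes tested and a threshold of 0.05. Each SE is the size of the log2 change over the square root of its F, and CPM is TMM-normalized. A single value per library cannot reach a two-sided exact permutation p under 0.1 with 3 against 3. Replicates differed beyond counting noise (chi-square per degree of freedom 3.66 to 33.5), so none was a copy of another. The fit was tested on simulated data.

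Values in every library are given for members called in at least 1 comparison and for the supply genes. Other members are given by range and counts, with per-library values of Kdm1a added after its values were seen. Of the related lists, named genes are among the called genes with the smallest p, up to 3 a list and comparison. Steap4, Dus4l, Cyb5a, Hmox1 and Cyp1b1 are named outside this rule, the last 3 after their values were seen. A result this rule would name is not reported here. The members and lists were chosen with earlier results of these data known. As alternatives, DESeq2 1.42.0 and limma 3.58.1 voom were run, and other scalings and filters, the compared groups alone, a replicate block, a length and GC correction (loess span 0.3), each library left out and stricter thresholds.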

Additional observations from a re-analysis of the deposited data

Results flagged for a closer look

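For 17 members (37% of those tested, beside 21.3% of all genes) the direct test of DPI 72 h against DPI 24 h passed (edgeR quasi-likelihood test, Benjamini-Hochberg). The effects of the exposures thus differed for these members. Higher at 72 h than at 24 h, on the log2 scale, were Cyb5r1 by 1.18, Dus2 by 1.11, Steap1 by 0.65, Sqrdl by 0.64, Gfer by 0.43, Steap2 by 0.40, D2hgdh by 0.38, Qsox2 by 0.30 and Cyb5r3 by 0.27. For all of these but Cyb5r3, the 24 h libraries were the lowest and had passed as lower than controls. Lower at 72 h than at 24 h were Steap3 at -0.80, Por at -0.74, Maoa at -0.44, Xdh at -0.42, Gpd2 at -0.37, Tyw1 at -0.35, Cyb5r4 at -0.29 and Aifm1 at -0.19. Por, Steap3, Gpd2, Tyw1 and Aifm1 had passed as higher than controls at 24 h, while Maoa and Xdh were below controls at both times. The 7 calls that remained with each library left out were those of Cyb5r1, Dus2, Steap1, Steap2, Steap3, Por and Maoa. Time in culture and DPI cannot be told apart in these differences.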

How the results depend on the processing

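No result was reversed under the 20 alternatives, although the stricter thresholds keep the same log2 changes and could not reverse one. Over 25 members (those called in at least 1 comparison and the supply genes), in 3 comparisons under each alternative, 1347 kept their side of the threshold, 142 no longer passed and 11 passed newly. All 142 losses fell among the 20 calls at 24 h, 5 at 72 h and 17 between the exposures. The 1347 also hold results that had not passed at first and so could not be lost. Another 7 members, Dld, Ppox, Ivd, Paox, Aox1, Pcyox1 and Pcyox1l, passed newly 27 times. For named genes of the related lists the same counts were 1338, 89 and 13. At an adjusted p under 0.01, 13 members passed at 24 h (5 higher; 1904 of all genes), 627 of all genes at 72 h, and 7 members between the exposures (4 higher and 3 lower; 1590 genes). With a log2 change of at least 0.5 in size as well as an adjusted p under 0.05, these were 10 at 24 h (3 higher and 7 lower; 1604 genes), 3 at 72 h (1 higher; 624 genes) and 6 between the exposures (4 higher and 2 lower; 1449 genes). Scaling by library totals gave 5 lower members at 72 h, against 3 with TMM scaling. The share of all genes passing with that scaling is not given here. Fitting the compared groups alone gave 774 of all genes at 72 h and 4660 between the exposures. The cause of these moves was not tested, other than the stricter threshold itself. With single libraries left out, members called were 14 to 20 at 24 h (5 to 9 higher, 9 to 13 lower), 4 to 7 at 72 h (2 to 3 higher, 2 to 4 lower) and 9 to 22 between the exposures (5 to 12 higher, 4 to 10 lower), and all genes called were 2351 to 4419, 736 to 1965 and 1953 to 4729. The highest counts of all genes at 72 h (1965) and between the exposures (4729) came without control 2.

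Libraries with the same number correlated by -0.0925 to 0.00265 over 9 pairs, so the numbers were not taken to pair libraries. With the replicate block, 16 members passed at 24 h, 4 at 72 h and 13 between the exposures, of which 5 were lower. Without the block these were 20, 5 and 17. The share of all genes passing with the block is not given here, so these counts are not read as a result about the members. Depth limits the rarest tested members most, such as Slc52a3 with 6 to 21 counts per library.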
